A study of Rattus norvegicus with 4 samples.

Results

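The collagen chain genes are all entries of the deposited gene table whose name is Col, a type number, the letter a and a chain number, 42 of 23608 entries. They were read in wild-type primary rat microvessels of subcutaneous soft connective tissue, labelled as vascular cells, on stiff or soft matrix and each with or without A83-01, which blocks the receptor kinases that carry TGF-beta signals. Each of the 4 groups held 1 mRNA library, and the labels give no age, stiffness, dose or time. Values given as 4 numbers follow the order soft, A83-01 on soft, stiff, A83-01 on stiff. The question was how stiffness and the inhibitor affect microvessels and the change of pericytes, which wrap capillaries, into myofibroblasts. No difference between 2 libraries can be checked against replicates. The labels do not say whether the libraries came from separate cultures, so the spread among these 4 may be technical. The p-values of tests with both factors rest on what the summed effects leave unexplained in these 4 libraries, not on replicates. Both stiff libraries carry a different kind of code from both soft ones, so stiffness and a separate preparation cannot be told apart.

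Collagens are secreted proteins whose chains wind around one another into a helix of repeated glycine triplets. Fibrillar collagens (types I, II, III, V, XI, XXIV and XXVII) bear tension in connective tissue, FACIT collagens sit on the surface of fibrils, and type IV forms the sheet of the basement membrane that underlies endothelium and wraps pericytes. Beaded filaments of type VI lie around cells, type VIII forms a network beneath endothelium, and the multiplexins XV and XVIII are proteoglycans of the vascular basement membrane zone. TGF-beta is a known inducer of fibrillar collagen genes in fibroblasts and mural cells.

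By class, the 42 genes were 10 fibrillar, 6 of type IV, called basement membrane below, 3 network (VIII and X), 9 FACIT, 5 beaded filament, 2 multiplexin, 1 anchoring fibril (VII), 4 transmembrane and 2 others. Col1a2, Col6a3 and Col21a1 were not analysed here, so sums for types I and VI hold part of their chains. Of the 42 genes, 28 reached 1 CPM (counts scaled to library size with trimmed mean of M-values, TMM, factors) in at least 1 library, and 21 did so in all 4. The other 7 of the 28 (Col11a1, Col11a2, Col23a1, Col4a3, Col4a4, Col6a6 and Col8a2) were kept through their higher libraries, so the fact that they differ is partly fixed by that minimum. The 14 genes below it had at most 24 counts in any library. They were the cartilage collagen genes Col2a1, Col9a1, Col9a2, Col9a3 and Col10a1, together with Col4a6, Col6a4, Col13a1, Col19a1, Col22a1, Col24a1, Col25a1, Col26a1 and Col28a1. Col9a1 and Col19a1 had 0 counts throughout, where a floor of 3 counts corresponds to 0.0842 to 0.103 CPM.

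Start-site sequences are shown first for the genes on which the results turn. The RefSeq promoter table (build GRCr8, which is not the build of the deposited table) held 33 of the 42 genes. Col4a1 and Col4a2, the main basement membrane chains, lie head to head with 76 bases between their start sites, and their levels kept a near-constant ratio. The whole stretch between them (chr16:84885521-84885596, plus strand) is given with its GC box (GGGCGG on either strand) in capitals:

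Col4a1/Col4a2: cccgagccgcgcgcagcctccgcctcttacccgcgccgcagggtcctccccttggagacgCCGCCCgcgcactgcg

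Col4a3 and Col4a4, chains of another type IV network, are also arranged head to head, with 412 bases between their start sites, and their levels differed in opposite directions between stiff and soft. Below are 150 bases before each start (Col4a3 chr9:91323840-91323989, plus strand; Col4a4 chr9:91323578-91323727, minus strand). Capitals mark GC boxes, CCAAT boxes and the SMAD-binding letters CAGAC, on either strand:

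Col4a3: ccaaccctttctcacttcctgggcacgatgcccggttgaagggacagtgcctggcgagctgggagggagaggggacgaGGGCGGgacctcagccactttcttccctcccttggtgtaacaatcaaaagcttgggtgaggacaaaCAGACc
Col4a4: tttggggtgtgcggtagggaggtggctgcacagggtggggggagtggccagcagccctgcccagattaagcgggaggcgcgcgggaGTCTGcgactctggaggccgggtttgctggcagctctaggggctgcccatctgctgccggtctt

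Col11a1 and Col8a2 passed the tests of both stiffness and A83-01. Their 150 bases before the start (chr2:204508986-204509135 and chr5:143870619-143870768, both plus strand) are given with the same marks:

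Col11a1: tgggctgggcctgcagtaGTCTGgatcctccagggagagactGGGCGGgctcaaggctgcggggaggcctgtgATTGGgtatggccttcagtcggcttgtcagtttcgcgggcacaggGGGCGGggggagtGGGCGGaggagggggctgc
Col8a2: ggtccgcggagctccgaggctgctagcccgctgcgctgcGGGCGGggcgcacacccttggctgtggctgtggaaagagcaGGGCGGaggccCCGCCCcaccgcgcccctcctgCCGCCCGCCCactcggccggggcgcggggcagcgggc

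In the latter pair, Col11a1 held 3 GC boxes, 1 CCAAT box and 1 CAGAC, and Col8a2 held 5 GC boxes, counting overlapping copies, and 0 CAGAC. Over windows from 250 bases before to 50 after the start, a GC box lay in 19 of the 33 collagen promoters (57.6%) and in 34.9% of all 27457 promoters. CAGAC lay in 12 of 33 (36.4%, against 50.0% of all), CCAAT in 10 (30.3%, against 37.7%) and TATAAA in 3 (9.09%, against 14.3%). The TEAD-binding letters GGAATG lay in 5 (15.2%, against 13.9%), and the CArG box of serum response factor in 1 (3.03%, against 1.64%). Every motif was read on both strands, and a match is a match of letters only.

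Depth was 32271844 to 33416200 total counts per library. The 42 collagen genes held 9.002% of all counts in soft (95% exact binomial interval 8.99 to 9.01), 5.06% in soft with A83-01 (5.05 to 5.06), 15.0% in stiff (15.0 to 15.1) and 7.38% in stiff with A83-01 (7.37 to 7.38). Such intervals cover counting error only. Collagens took the largest part of the stiff library, and in each matrix the A83-01 library held the smaller part. Endothelial and mural markers were present in every library (Cdh5 at 730 to 1325 CPM, Pdgfrb at 881 to 1591 CPM). Summed over their list, 9 pericyte and mural markers stood at 2774, 1931, 9666 and 7740 CPM, and 5 of the 9 rose with stiffness in the test described below. The 7 fibroblast markers summed to 15175, 25701, 4581 and 8443 CPM, 2 of the 7 (Dcn and Pdgfra) fell with stiffness, and none was at 0. That sum is mostly Dcn, at 11520, 21955, 1442 and 5279 CPM, whereas Thy1 stood at 1200, 1501, 1967 and 2101 CPM. The 10 endothelial markers summed to 2216, 2195, 1834 and 2952 CPM, and 1 of the 10 (Vwf) fell with stiffness. Of the leukocyte and macrophage markers (82.4, 127, 37.4 and 62.2 CPM summed) 1 of 5 tested fell, Adgre1, and of the adipocyte markers (21.7, 38.7, 8.29 and 20.1 CPM summed) 2 of 4, Plin1 and Cfd. In such bulk libraries, fewer cells of a type and less RNA per cell cannot be told apart, and the part of these shifts in the collagen values was not tested.

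Per length, 2 fibrillar chains stood highest. Col1a1, a chain of the main tensile collagen of connective tissue, stood at 5600 FPKM (fragments per kilobase of transcript, scaled to library size) in soft, 2497 in soft with A83-01, 8371 in stiff and 2826 in stiff with A83-01. Col3a1, the chain of type III fibrils of vessel walls, stood at 2790, 1224, 7804 and 3022 FPKM in the same order. Both were highest in stiff and lowest in soft with A83-01. The basement membrane chains Col4a1 (1259, 1054, 1109 and 1512 FPKM) and Col4a2 (752, 599, 659 and 896 FPKM) were instead highest in stiff with A83-01. In that library the multiplexin Col18a1 reached 449 FPKM against 174 to 177 FPKM in the other 3.

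**Figure D1:**
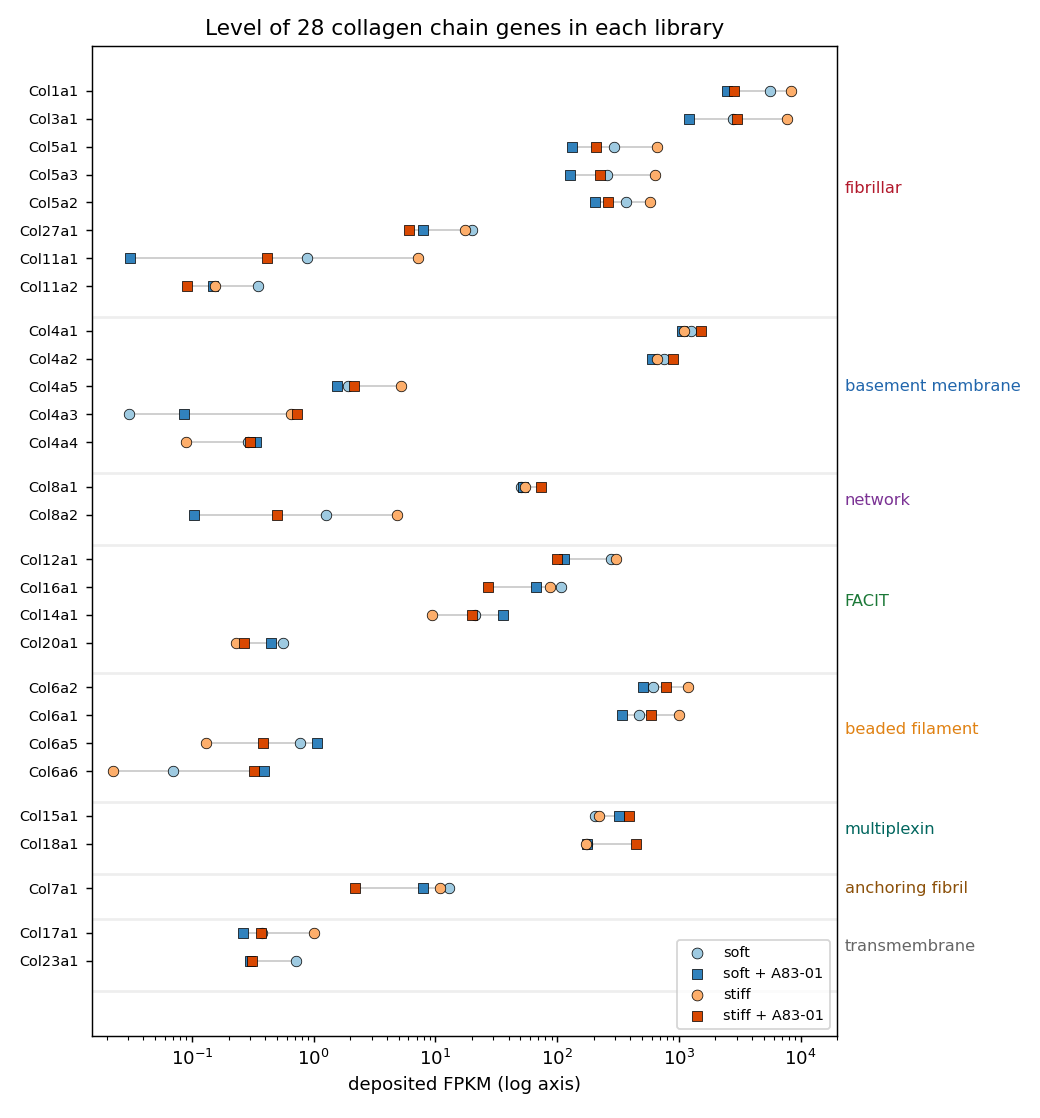
Deposited FPKM on a log axis for the 28 collagen chain genes past the expression minimum, grouped by class, 1 point per library (circles without and squares with A83-01; Col23a1 is listed at 0 in stiff and has no point there). Col1a1 and Col3a1 lie highest, and the levels of Col11a1 spread from 0.0308 to 7.24 FPKM.

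As shares of the summed collagen FPKM, fibrillar chains made up 70.3% in soft, 56.1% in soft with A83-01, 78.9% in stiff and 57.5% in stiff with A83-01. Basement membrane chains made up 15.2%, 22.1%, 7.74% and 21.2% in the same order. Shares of 1 total are bound to each other. The summed FPKM of the fibrillar class was 9334, 4193, 18077 and 6546, and that of the basement membrane class 2013, 1655, 1774 and 2411, which is not the reverse order. Beaded filaments held 8.15%, 11.4%, 9.59% and 12.1%, multiplexins 2.87%, 6.66%, 1.72% and 7.35%, and FACIT collagens 3.05%, 2.90%, 1.75% and 1.30%. The remaining classes stayed below 1% each. FPKM sums give no interval here, and the chains left out (Col1a2, Col6a3 and Col21a1) would enter both the sums and the totals.

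**Figure D2:**
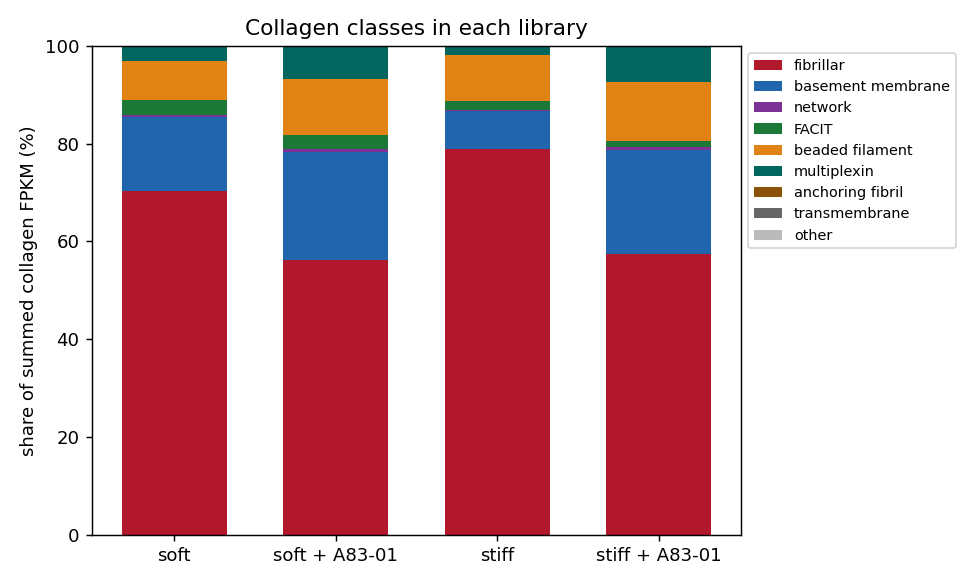
Share of summed collagen FPKM by class (percent, stacked bars) in each library, over the 42 genes in the table. The fibrillar share was largest in stiff (78.9%) and the basement membrane share smallest there (7.74%).

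Over both treatments, 1 fibrillar, 1 network and 1 basement membrane chain rose with stiffness, and 1 beaded filament and 1 FACIT chain fell. Stiffness was tested with edgeR's quasi-likelihood test on all 4 libraries, A83-01 being an additive term, at a Benjamini-Hochberg adjusted 0.05 over 13634 genes. This leaves 1 residual degree of freedom, the difference between both responses, so the test favours genes that respond alike in both conditions. Of 28 collagen genes, 3 rose (Col11a1, Col8a2 and Col4a3) against 2.35% of all genes, and 2 fell (Col6a5 and Col14a1) against 3.29%. All 3 that rose are among the 7 genes kept through their higher libraries. At an unadjusted p of at most 0.05, 10 were up (12.1% of all genes) and 3 down (13.2%). DESeq2 called 8 up (4.21%) and 2 down (5.41%), and total-count scaling 10 up (4.57%) and 4 down (8.32%). Leaving A83-01 out of the quasi-likelihood model left 0 up (0.0953%) and 0 down (0.125%).

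Col11a1, a chain of the minor fibrillar collagen XI, stood at 8.10 CPM in soft, 0.298 in soft with A83-01, 79.2 in stiff and 3.70 in stiff with A83-01. Each stiff library lay above the soft library of the same treatment, and each A83-01 library below its untreated counterpart, while soft without inhibitor lay above stiff with it. Stiff exceeded soft 9.72-fold (95% counting interval 8.62 to 11.1), and 10.5-fold (6.54 to 26.5) when both held A83-01. Its log2 rise was 3.38 (SE 0.190, adjusted p = 0.00680 by edgeR's quasi-likelihood test; 2.73e-21 to 0.427 over 8 alternatives).

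Col8a2, a chain of the short-chain network collagen VIII of endothelial cells and the cornea, showed the same order: 6.45 CPM in soft, 0.537 in soft with A83-01, 28.8 in stiff and 2.41 in stiff with A83-01. It rose with stiffness by 2.16 (SE 0.202, adjusted p = 0.0148 by edgeR's quasi-likelihood test; 1.25e-06 to 0.510 over 8 alternatives). Its partner chain Col8a1 stood at 261, 275, 333 and 374 CPM and did not pass.

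Col4a3, known from the basement membranes of kidney and lung, stood at 0.269 CPM in soft (9 counts), 0.716 in soft with A83-01, 6.16 in stiff and 5.64 in stiff with A83-01. Both stiff libraries lay above both soft ones, and the gene rose by 3.64 (SE 0.482, adjusted p = 0.0277 by edgeR's quasi-likelihood test; 4.72e-07 to 0.0975 over 7 alternatives). Its neighbour Col4a4 stood at 2.002, 2.36, 0.791 and 2.02 CPM and was 2.42-fold lower in stiff than in soft (1.55 to 4.26). With A83-01 in both, Col4a4 was 1.16-fold lower (0.837 to 1.63), an interval that includes equality.

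Among the chains that fell, Col6a5, a minor chain of type VI, stood at 7.41 CPM in soft, 10.2 in soft with A83-01, 1.48 in stiff and 3.53 in stiff with A83-01. It fell by 1.90 (SE 0.294, adjusted p = 0.0370 by edgeR's quasi-likelihood test; 0.000234 to 0.189 over 8 alternatives). Both stiff libraries lay below both soft ones, and a minimum of 10 CPM ended the call (adjusted p = 0.0809). The FACIT chain Col14a1, which decorates fibrils in skin and tendon, stood at 138, 234, 71.8 and 125 CPM. It fell by 0.92 (SE 0.136, adjusted p = 0.0338 by edgeR's quasi-likelihood test; 0.000266 to 0.312 over 8 alternatives). Both stiff libraries lay below both soft ones for Col14a1 too. Stiff was 1.92-fold below soft (1.82 to 2.02), and past 2-fold with total-count scaling or FPKM ratios. The fibroblast genes Dcn and Pdgfra fell with stiffness as well, and their part in these values was not tested.

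In stiff against soft without inhibitor, 10 of 28 collagen genes were at least 2-fold higher with a counting interval excluding equality (5.33% of all genes) and 3 at least 2-fold lower (8.58%). Scaling by total counts, which moved the log2 ratios of this pair by −0.234, gave 9 higher (3.87% of all genes) and 7 lower (11.7%). The higher ones included 4 fibrillar chains. Col3a1 was 3.31-fold higher (3.30 to 3.32), Col5a3 2.92-fold (2.89 to 2.95) and Col5a1, a chain that sets fibril diameter, 2.63-fold (2.61 to 2.66). Col1a1 and Col5a2 were 1.77-fold and 1.85-fold higher, short of 2-fold. In the 4 libraries Col5a1 stood at 2041, 927, 5377 and 1390 CPM, Col5a2 at 1998, 1101, 3698 and 1357 CPM and Col5a3 at 1886, 933, 5505 and 1567 CPM, each highest in stiff. The beaded filament chains Col6a1 (2.52-fold, 2.49 to 2.54) and Col6a2 (2.32-fold, 2.30 to 2.33), the basement membrane chain Col4a5 (3.26-fold, 2.95 to 3.63) and the transmembrane Col17a1 of epithelial hemidesmosomes (3.13-fold, 2.47 to 4.13) were higher as well. Col6a1 stood at 1744, 1273, 4391 and 2108 CPM and Col6a2 at 2719, 2251, 6295 and 3350 CPM. Col4a5 stood at 14.8, 12.1, 48.4 and 16.3 CPM and Col17a1 at 2.51, 1.79, 7.98 and 2.38 CPM, so for both the stiff library stood apart from the other 3. Of 5 keratinocyte markers in the table, Krt5, Krt14 and Dsg3 had 0 counts in every library, Krt1 had 0, 4, 5 and 25 counts and Krt10 had 90, 75, 59 and 54. Another transmembrane chain, Col23a1, had 35, 15, 0 and 16 counts; against the floor of 3 counts in that library, stiff was at least 10.1-fold below soft.

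The main basement membrane chains were nearly level in that pair. Col4a1 stood at 9965, 8379, 10396 and 11528 CPM, with stiff 1.04-fold above soft (1.04 to 1.05), and Col4a2 at 4478, 3578, 4645 and 5136 CPM. For Col4a1, Col4a2, the fibrillar Col27a1 (134 and 139 CPM) and the anchoring fibril gene Col7a1 (142 and 144 CPM), the sign of this difference turned under total-count scaling and with FPKM ratios. It also turned with FPKM ratios for Col18a1. These chains cannot be placed above or below in this pair. The FACIT chain Col20a1, at 2.90, 2.36, 1.44 and 1.35 CPM, was 1.97-fold lower in stiff than in soft (1.38 to 2.95), and past 2-fold with total-count scaling.

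With A83-01 in both libraries, which shares no library with the previous pair, 5 of 28 were at least 2-fold higher on stiff matrix (6.88% of all genes) and 3 lower (6.72%). Col11a1, Col3a1, Col4a3 and Col8a2 were higher in both pairs, 4 of the 10 and 4 of the 5. Of these, Col11a1, Col4a3 and Col8a2 were kept through their higher libraries. The overlap of both pairs over all genes was not computed in either direction, so these overlaps have no background. Among the 21 genes past the minimum in all libraries, 7 were higher without and 2 with A83-01, the latter close to the share of all genes. The fifth was Col18a1, precursor of the angiogenesis inhibitor endostatin, at 2605 CPM against 1071 CPM (2.43-fold, 2.40 to 2.46), while it stood at 1243 against 1056 CPM without inhibitor. Col6a5 alone was lower in both pairs. Col7a1 (23.3 against 86.9 CPM, 3.73-fold lower, 3.45 to 4.04) and the FACIT chain Col16a1 (164 against 421 CPM, 2.56-fold lower, 2.49 to 2.64) were lower with the inhibitor. Without it they stood at 144 against 142 CPM and 655 against 679 CPM. Col1a1 was 1.09-fold higher (1.08 to 1.09).

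In the test of A83-01 with stiffness as the additive term, 0 of 28 collagen genes rose (0% of all genes) and 2 fell, Col11a1 and Col8a2 (0.044% of all genes, 6 in total). Both were kept through their higher libraries, so their fall is partly fixed by the minimum, and of the 21 genes past it in all libraries 0 fell. In log2 units, Col11a1 fell by 4.51 (SE 0.196, adjusted p = 0.0327 by edgeR's quasi-likelihood test; 4.78e-36 to 0.998 over 8 alternatives). Col8a2 fell by 3.58 (SE 0.209, adjusted p = 0.0377 by edgeR's quasi-likelihood test; 7.19e-17 to 0.998 over 8 alternatives). The A83-01 libraries were 21.1-fold lower for Col11a1 on stiff (17.9 to 25.7) and 22.7-fold lower on soft (14.5 to 57.2), and 11.7-fold (9.55 to 15.1) and 10.9-fold (7.42 to 20.7) lower for Col8a2. Both calls ended when library scaling was computed without the collagen genes (adjusted p = 0.0583 for each in that quasi-likelihood fit), with log2 values of −4.524 for Col11a1 and −3.585 for Col8a2 there. Both also ended without stiffness in the model, which called 0% of all genes in either direction. The call of Col8a2 ended with limma-voom too (adjusted p = 0.0530) and with a minimum of 10 CPM (adjusted p = 0.0735 in edgeR's quasi-likelihood test). At an unadjusted p of at most 0.05, 4 were up (7.25% of all genes) and 15 down (6.04%). DESeq2 called 2 up (1.61%) and 9 down (1.79%), limma-voom 0 up (0%) and 1 down (0.022%), and total-count scaling 3 up (4.14%) and 12 down (1.98%).

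Fibrillar chains were lower with A83-01 in all 8 measured cases on each matrix. On stiff matrix 7 of the 8 were at least 2-fold lower (4.47% of all genes), and on soft matrix also 7 (2.44% of all genes). Col1a1 stood at 69475 CPM without and 19079 CPM with A83-01 on stiff (3.64-fold lower, 3.63 to 3.65) and at 39252 and 17577 CPM on soft (2.23-fold lower, 2.23 to 2.24). Col3a1 (15996, 7047, 52984 and 16688 CPM) was 3.17-fold lower (3.17 to 3.18) on stiff and 2.27-fold lower (2.26 to 2.28) on soft. Col5a1 (3.87-fold and 2.20-fold lower), Col5a3 (3.51-fold and 2.02-fold) and Col27a1 (3.55-fold and 2.49-fold) were lower on both. Col5a2 was 2.72-fold lower on stiff and 1.81-fold lower on soft, and Col11a2 1.99-fold and 2.23-fold lower, at 0.645 to 2.54 CPM over the 4 libraries. The class median was −1.82 on stiff and −1.16 on soft, beside 0.02 and −0.00 over all genes tested. Col11a1 and Col11a2 are among the genes kept through their higher libraries. In edgeR's quasi-likelihood test Col11a1 alone of the 8 fell with A83-01, while DESeq2 also called Col5a1, Col5a2, Col5a3 and Col27a1 lower. DESeq2 did not call Col1a1, Col3a1 or Col11a2.

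Over all classes, 14 of 28 were at least 2-fold lower with A83-01 on stiff matrix (4.47% of all genes) and 5 higher (7.8%), and on soft matrix 10 lower (2.44%) and 2 higher (2.18%). Of the 21 genes past the minimum in all libraries, 12 were at least 2-fold lower on stiff and 6 on soft. At least 2-fold higher were 2 of those 21 on stiff and 0 on soft. The FACIT chain Col12a1, abundant in tendon and fascia, stood at 4575 CPM without and 1234 CPM with A83-01 on stiff (3.71-fold lower, 3.67 to 3.75) and at 3512 and 1453 CPM on soft (2.42-fold lower, 2.39 to 2.44). Its class otherwise divided: Col14a1 was 1.74-fold and 1.69-fold higher with A83-01. The multiplexin Col15a1 (1290, 2010, 1629 and 2341 CPM) was also higher on both, by 1.44-fold (1.42 to 1.45) and 1.56-fold (1.54 to 1.58). Col6a6, a minor type VI chain, was higher on both, with 7 counts in stiff against 91 with A83-01 (8.67-fold, 4.94 to 27.1) and 19 counts in soft against 108 (5.23-fold, 3.47 to 9.80). Col6a6 reached the expression minimum only in the A83-01 libraries, so its rise is partly fixed by that minimum. Col12a1, Col14a1, Col15a1 and Col6a6 did not pass edgeR's quasi-likelihood test of A83-01. With total-count scaling all 4 of them passed it, and DESeq2 called Col12a1, Col14a1 and Col6a6.

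**Figure D3:**
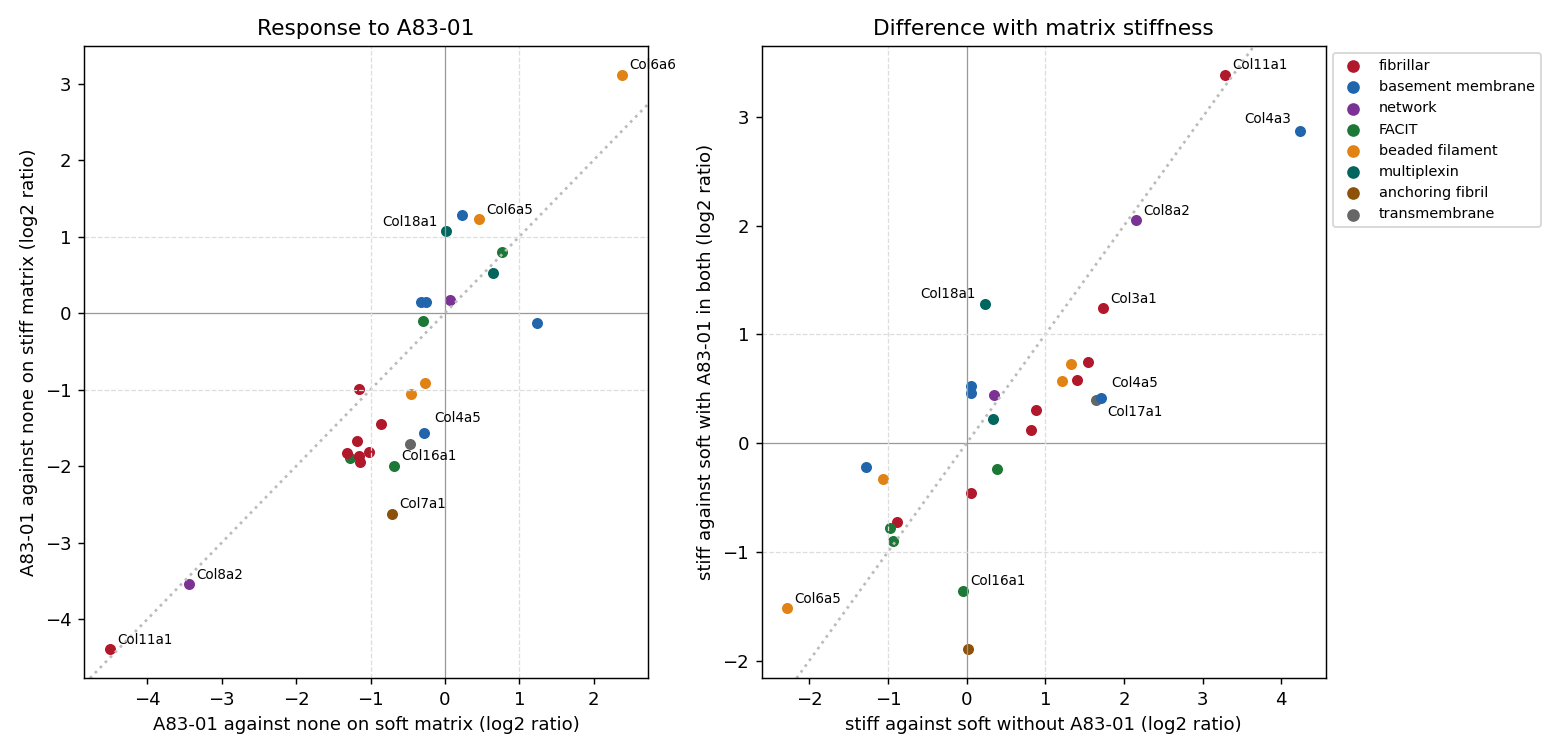
Log2 ratios of 27 collagen chain genes (Col23a1, with 0 counts in stiff, is not drawn), coloured by class. The left panel plots the A83-01 response on soft (x) and stiff (y) matrix and the right panel stiff against soft without (x) and with (y) A83-01; dashed lines mark 2-fold and the dotted line equal values. All 8 fibrillar genes lie below 0 on both axes of the left panel.

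Some chains differed with A83-01 on 1 matrix more than on the other. The difference between both responses has no replicate check and no test here, and is given with a 95% counting interval. It reached 2-fold higher on stiff for 3 of 28 (6.26% of all genes) and in the opposite direction for 5 (3.2%). Among the 21 genes past the minimum in all libraries, 1 and 4 did so. Col4a4, Col23a1 and Col4a3 were kept through their higher libraries, so the fact that they differ is partly fixed by that minimum. Scaling by total counts moved the log2 ratios of A83-01 against none by 0.284 on stiff and 0.011 on soft. The difference was not recomputed under that scaling, so these counts hold for TMM scaling and values near 2-fold may cross it. Col7a1 was 6.16-fold lower with A83-01 on stiff (5.73 to 6.66) and 1.64-fold lower on soft (1.56 to 1.71), a difference of −1.91 on the log2 scale (−2.04 to −1.79). Col16a1 was 3.99-fold lower on stiff and 1.61-fold lower on soft, a difference of −1.31 (−1.36 to −1.26). Col4a5 (−1.28, −1.52 to −1.05), Col17a1 (−1.24, −1.83 to −0.65) and Col4a3 (−1.36, −2.42 to −0.31) also differed in that direction. Col18a1 was 2.10-fold higher with A83-01 on stiff (2.07 to 2.12) and 1.01-fold higher on soft (0.999 to 1.03), a difference of 1.05 (1.02 to 1.07). Col4a4 (1.06, 0.26 to 1.86) and Col23a1 made up the 3. For Col11a1 (0.11, −0.76 to 0.98) and Col8a2 (−0.10, −0.83 to 0.63) the interval included equal responses.

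Chains of one collagen type kept their ratio in some cases and not in others. Per length, the ratio of Col4a1 to Col4a2 was 1.67 in soft, 1.76 in soft with A83-01, 1.68 in stiff and 1.69 in stiff with A83-01, a highest over lowest of 1.05 (counting interval 1.04 to 1.06). Col6a1 to Col6a2 was 0.770, 0.679, 0.837 and 0.755, and Col5a1 to Col5a3 was 1.13, 1.04, 1.03 and 0.930. Col5a1 to Col5a2 was 0.794, 0.653, 1.14 and 0.796, so Col5a1 exceeded Col5a2 in stiff alone. The ratio of Col8a1 to Col8a2 was 39.3, 505, 11.2 and 150, a highest over lowest of 45.0 (27.7 to 70.5). Col11a1 to Col11a2 was 2.49, 0.205, 46.9 and 4.55, a highest over lowest of 229 (101 to 470). Its lowest value rests on 10 counts of Col11a1 and 37 of Col11a2 in soft with A83-01. For both types, the stiff library and the soft library with A83-01 lay at opposite ends. Of the 14 chain pairs in which each chain had 10 or more counts throughout, the head-to-head pair Col4a1 and Col4a2 had the lowest highest-over-lowest value, while Col4a3 and Col4a4, also head to head, had 9, 24, 179 and 201 counts against 67, 79, 23 and 72.

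**Figure D4:**
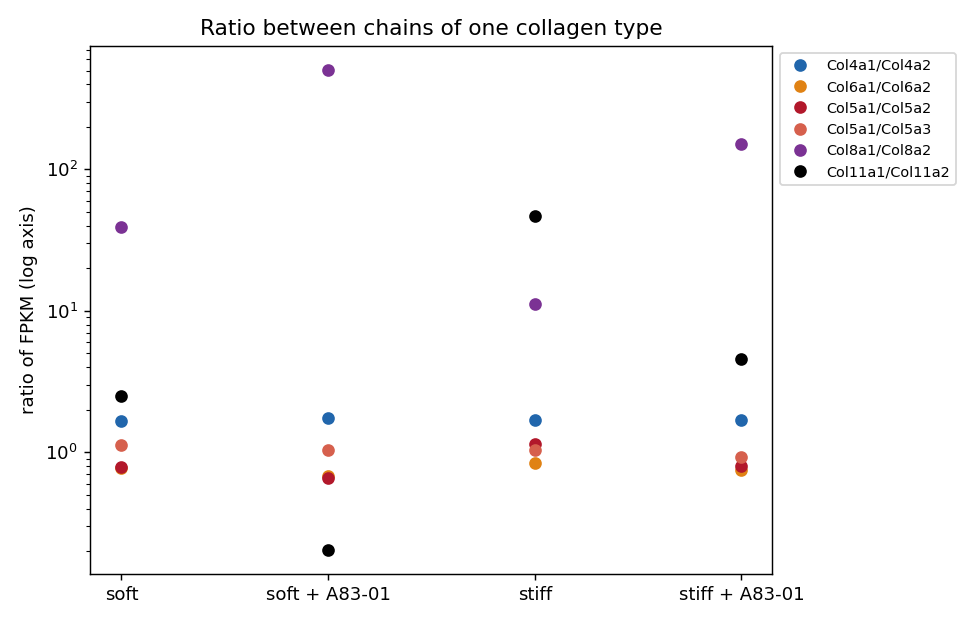
Ratio of deposited FPKM between chains of the same collagen type (log axis) in each library, for 6 chain pairs, 1 point per library. Col4a1/Col4a2 stays between 1.67 and 1.76, while Col8a1/Col8a2 runs from 11.2 to 505.

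Genes that act on collagens were read from a list of 50, of which 45 were tested. In edgeR's quasi-likelihood test, 2 rose and 3 fell with stiffness, beside 2.35% and 3.29% of all genes, and 0 rose and 1 fell with A83-01, beside 0% and 0.044%. The collagen-binding integrin chain Itga11 rose with stiffness by 2.85 (SE 0.173) and fell with A83-01 by 3.56 (SE 0.178), standing at 81.1, 7.67, 648 and 49.5 CPM. Its adjusted p in edgeR's quasi-likelihood test was 0.00729 for stiffness and 0.0357 for A83-01. That is the same order of libraries as for Col11a1 and Col8a2, and also for Col1a1, Col5a1, Col5a2, Col5a3 and Col17a1. For Col17a1, soft and stiff with A83-01 were nearly level (84 and 85 counts), so their order is not resolved. The share of all genes with this order was not computed. The integrin chain Itga1 (44.8, 41.8, 74.9 and 92.9 CPM) rose with stiffness by 0.95 (SE 0.155). The gelatinase Mmp9 (2322, 2454, 513 and 263 CPM; −2.70, SE 0.340), the crosslinking oxidase Loxl4 (−1.40, SE 0.218) and the procollagen peptidase Adamts3 (−2.88, SE 0.411) fell with stiffness. None of the 14 genes of proline and lysine modification and of the 7 of chaperoning and secretion passed either test. The A83-01 test called 6 of 13634 genes, so not passing it does not show that a gene was level. Plod2 stood at 113, 21.5, 178 and 12.8 CPM, a log2 difference with A83-01 of −3.08 (SE 0.372). P4ha3 differed by −1.75 (SE 0.295). Colgalt2 was higher with A83-01 by 1.14 (SE 0.408), at 4.51, 5.91, 3.68 and 13.7 CPM. P3h2 was higher by 0.67, and P4hb and Ppib by 0.03 and 0.02. All other genes of proline and lysine modification were lower, from −0.15 for P3h3 to −0.92 for P4ha2. The cartilage regulator gene Sox9 stood at 2.15, 0.955, 8.84 and 0 CPM. Of the other cartilage markers, Comp stood at 2.39, 2.92, 1.86 and 2.52 CPM, Matn3 had 33, 2, 27 and 3 counts, Acan had 0, 0, 5 and 0 counts, and Matn1, Hapln1 and Cnmd had 0 throughout.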

How the data were processed

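The mRNA of 4 libraries was read in pairs, with no molecular identifiers or strand marking mentioned, per the labels' protocols. The deposited counts are whole reads per gene, not normalised, and the deposited FPKM values were scaled by the authors for length and library size. The submitters' processing notes name HISAT2, edgeR and the build Rnor_6.0. The read counter, tool versions and annotation were not given in the sources used here. Reads of overlapping genes may not be separated. For 18 collagen genes of 100 or more counts throughout, count and FPKM implied 1 length within 5%.

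Groups came from the sample titles. Tools were edgeR 4.0.16, DESeq2 1.42.0 and limma 3.58.1, under R 4.3.3. All genes with at least 1 TMM-scaled CPM in at least 1 library (13634) were fitted and adjusted together. The code of the stiffness test was run on simulated data with less spread than these and no A83-01 effect. That run does not check the A83-01 test. SE is the log2 difference divided by the root of the F statistic. Ratios between 2 libraries used a prior count of 2 with a 95% conditional binomial interval, and a library at 0 counts was set to a floor of 3 counts in that library. The difference between responses has a delta-method interval. Every collagen gene is accounted for, with values for those past the minimum. The members and gene lists were chosen with earlier results of these data known. Alternatives changed scaling, minimum, prior count, tool, model, unit and class limits. The rule's protein sequences were not used here, and the promoter windows and motifs were chosen after the values were seen.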

Additional observations from a re-analysis of the deposited data

Results flagged for a closer look

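For 3 collagen genes the A83-01 response pointed in opposite directions on the 2 matrices, with counting intervals that excluded equality on both. The share of all genes that did so was not computed, so the count of 3 cannot be set beside it. At high counts such an interval excludes equality even for a 1.11-fold difference. With 1 library per group the difference was not tested. Col4a1 was 1.11-fold higher with A83-01 on stiff (1.10 to 1.11) and 1.19-fold lower on soft (1.18 to 1.20), a difference of 0.40 on the log2 scale. Col4a2 was 1.11-fold higher (1.10 to 1.11) and 1.25-fold lower (1.24 to 1.26), a difference of 0.47. Col23a1 had 0 counts in stiff, 16 in stiff with A83-01, 35 in soft and 15 in soft with A83-01, a difference of at least 3.34 with the stiff library at its floor of 3 counts. Col23a1 was kept through its higher library, so the fact that it differs is partly fixed by the expression minimum.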

How the results depend on the processing

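No paired analysis was possible because each group holds 1 library. Of 118 counts, shares and ratios recomputed under the alternatives, 89 kept their reading. Some of these could hardly change. Adding multiplexins and type VII to type IV leaves the fibrillar share as it was, and gene length largely cancels when chain ratios are compared between libraries. Collagen genes called with stiffness numbered 10 up and 4 down with total counts alone, 8 up with DESeq2, 1 down with a minimum of 10 CPM, and 0 up and 0 down without A83-01 in the model. With A83-01, 3 rose and 12 fell with total counts alone, 2 rose and 9 fell with DESeq2, 1 fell with a minimum of 10 CPM, 1 fell with limma-voom, and 0 fell with scaling without the collagen genes or without stiffness in the model. Genes at least 2-fold lower in stiff against soft numbered 7 with total counts and 6 with no minimum, and with FPKM ratios 1 gene was higher with A83-01 on soft. By counts in place of FPKM, the fibrillar share was 70.2%, 56.8%, 79.9% and 58.0% (soft, A83-01 on soft, stiff, A83-01 on stiff), and that of basement membrane 16.6%, 24.6%, 8.79% and 24.1%. With multiplexins and type VII added, the latter was 18.1%, 28.9%, 9.51% and 28.5%. Log2 differences that reversed, none past the threshold, were Col12a1 with stiffness (−0.025) and, with A83-01, Col4a1 (0.10) and Col4a2 (0.058) under total counts, and Col23a1 (−0.23) and Col4a3 (−0.011) without stiffness in the model. The cause was not tested.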
